A study of Homo sapiens with 12 samples.

Results

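The histone and tRNA gene cluster of chromosome band 6p22 was taken as every CCGG site listed at positions 26000000 to 28900000 of chromosome 6 (hg19), which gave 1413 sites of the 1019951 listed in the 12 libraries. These were read by HELP-tagging, in which DNA is cut at CCGG with HpaII, which needs an unmodified site, or with MspI, which cuts whether or not the inner cytosine is methylated or hydroxymethylated, and a short tag beside each cut is counted. Both cell lines are labelled as clear cell renal cell carcinoma lines and are named 786 and 769. Each line had 2 DNA samples treated with the agent labelled AA, ascorbic acid in the title of the study, and 1 control, so that 786 AA, 786 control, 769 AA and 769 control make up 6 DNA samples, each with 1 HpaII and 1 MspI library. Dose, time and whether the AA samples of a line were separate cultures are not given in the sources used here, and SDs and p-values measure only the spread between these samples, which may be technical. The readout is the share of a library's nuclear HpaII tags (chromosomes 1 to 22 and X) over the same share of MspI tags of that DNA sample, so that 1 is the genome mean and a higher ratio means more unmodified CCGG.

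Replication-dependent histone genes lie here in the largest such cluster of the human genome, mixed with tRNA genes, butyrophilin genes and zinc finger genes. The histone genes are short, lack introns and are transcribed in S phase, when new DNA has to be packaged, and tRNA genes are read by RNA polymerase III from promoters inside the gene. Active promoters of both kinds are usually free of DNA methylation, and ascorbic acid is a cofactor of the TET dioxygenases, which oxidise 5-methylcytosine.

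The RefSeq gene order lists 55 histone genes and 135 tRNA genes between SCGN and TRIM27, the neighbours that bracket the interval. Some of these may lie outside it, since coordinates were not converted between builds. Few histone promoters offer the assay a site. Of 54 RefSeq promoters of histone genes (250 bases before to 50 after the start), 39 held no CCGG, 10 held 1, 3 held 2 and 2 held 3. A CCGG was thus present in 27.8% of histone promoters, against 63.1% of all 35116 RefSeq promoters, and the mean number per promoter was 0.407 against 2.04. tRNA promoters were not analysed here.

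Promoters were placed on the listed sites by their restriction pattern, that is, by at least 3 CCGG of the RefSeq sequence (GRCh38.p14) whose spacing and order matched listed hg19 sites with no disagreement. This placed 17 promoters of 14 genes, and 0.699% of 11157 promoters of other chromosomes were placed in the interval by the same rule, an estimate of false placement. The 6 promoters below carry the results that follow. H1-4 encodes a linker histone and H4C8 a core histone H4, and both are the histone promoters with 3 CCGG. ZNF322 and ZNF184 encode zinc finger proteins, and ZSCAN31 a zinc finger protein with a SCAN domain. SCAND3 is a gene derived from a transposase. Capitals mark each CCGG, and coordinates and strand are those of GRCh38.p14.
H1-4, chr6:26156079-26156378, plus strand: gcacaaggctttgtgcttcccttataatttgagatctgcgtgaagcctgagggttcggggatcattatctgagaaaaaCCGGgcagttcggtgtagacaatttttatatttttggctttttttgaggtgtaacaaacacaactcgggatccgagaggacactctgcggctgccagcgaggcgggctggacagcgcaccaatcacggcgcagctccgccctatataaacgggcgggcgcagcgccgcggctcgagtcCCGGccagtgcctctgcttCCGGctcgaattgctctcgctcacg
H4C8, chr6:26285485-26285784, minus strand: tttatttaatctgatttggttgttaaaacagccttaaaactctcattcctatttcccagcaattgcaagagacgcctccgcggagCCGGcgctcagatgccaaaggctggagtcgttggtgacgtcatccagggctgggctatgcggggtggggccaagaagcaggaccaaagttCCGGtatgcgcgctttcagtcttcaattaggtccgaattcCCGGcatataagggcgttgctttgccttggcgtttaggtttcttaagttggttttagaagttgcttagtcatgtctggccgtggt
ZNF322, chr6:26659697-26659996, minus strand: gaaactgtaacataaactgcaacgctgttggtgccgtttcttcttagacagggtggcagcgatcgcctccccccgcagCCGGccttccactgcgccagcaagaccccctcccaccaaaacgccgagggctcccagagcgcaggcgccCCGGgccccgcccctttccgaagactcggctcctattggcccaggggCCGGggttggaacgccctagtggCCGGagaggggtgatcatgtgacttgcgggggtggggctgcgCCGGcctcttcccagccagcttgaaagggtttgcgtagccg
ZNF184, chr6:27473056-27473355, minus strand: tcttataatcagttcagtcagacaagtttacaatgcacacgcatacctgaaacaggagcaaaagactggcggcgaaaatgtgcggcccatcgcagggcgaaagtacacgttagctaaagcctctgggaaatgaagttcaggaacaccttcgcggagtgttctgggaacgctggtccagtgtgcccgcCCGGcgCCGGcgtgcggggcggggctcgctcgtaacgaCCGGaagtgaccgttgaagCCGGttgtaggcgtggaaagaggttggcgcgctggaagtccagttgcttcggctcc
ZSCAN31, chr6:28336099-28336398, minus strand: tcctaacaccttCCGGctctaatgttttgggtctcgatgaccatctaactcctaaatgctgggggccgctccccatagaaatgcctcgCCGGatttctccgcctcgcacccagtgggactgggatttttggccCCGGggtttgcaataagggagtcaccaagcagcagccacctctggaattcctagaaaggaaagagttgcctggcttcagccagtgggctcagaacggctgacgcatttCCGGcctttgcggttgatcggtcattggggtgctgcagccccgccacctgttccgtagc
SCAND3, chr6:28616153-28616452, minus strand: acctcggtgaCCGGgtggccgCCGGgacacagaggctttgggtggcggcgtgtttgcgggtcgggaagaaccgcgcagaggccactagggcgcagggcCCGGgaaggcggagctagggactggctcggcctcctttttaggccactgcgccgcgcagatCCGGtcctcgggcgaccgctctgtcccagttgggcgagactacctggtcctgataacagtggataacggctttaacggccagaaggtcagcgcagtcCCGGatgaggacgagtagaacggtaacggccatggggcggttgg

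Both histone promoters were cut by HpaII. At the 3 CCGG of H1-4 (sites from 26156387 to 26156584, hg19), HpaII tags numbered 63 and 63 in the 786 AA samples, against 0 in the 786 control. In 769 they numbered 30 and 3 in the AA samples, against 2 in the control. These HpaII tags fell at 2 of the 3 CCGG. The MspI libraries gave 26 tags in all at this promoter and 0 in 3 of the 6. A ratio was formed for 769 AA replicate 1 (3.45, on 7 MspI tags) and 786 AA replicate 2 (6.14, on 17), both above the genome mean. In 769 AA replicate 2 the 2 MspI tags were too few for a ratio. At H4C8 (26285796 to 26285926) there were 35 and 13 HpaII tags in the 786 AA samples against 0 in the 786 control, and 56 and 0 in the 769 AA samples against 14 in the 769 control. The 786 control library had HpaII tags at only 38 of the 1413 sites, so that the AA and control samples of 786 cannot be compared at single promoters.

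The other placed promoters ran from cut by HpaII in all 6 DNA samples to uncut in nearly all. The ZSCAN31 promoter printed above (28303933 to 28304162) had 301 and 130 HpaII tags in 786 AA against 0 in the 786 control, and 266 and 120 in 769 AA against 93 in the 769 control. Its ratio was 5.79 and 1.60 in 769 AA against 1.13 in the 769 control, so that both AA samples lay above it. The overlapping ZSCAN31 promoter from 28303871 had 3.88 and 0.838 in 769 AA against 1.05 in the 769 control. The ZSCAN31 promoter from 28324025 had 2.83 and 0.424 against 0.543. At both of these 769 AA replicate 2 lay below the control. HMGN4, which encodes a nucleosome-binding protein, was the only placed promoter with HpaII tags in all 6 DNA samples, 138 and 50 in 786 AA, 2 in the 786 control, 113 and 51 in 769 AA and 29 in the 769 control. PGBD1, derived from a piggyBac transposon, had ratios of 2.71 and 2.32 in 786 AA, with 0 HpaII tags in the 786 control, and of 4.35 and 5.48 in 769 AA against 12.5 in the 769 control.

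ZNF184 had HpaII tags in 769 only. Its promoter overlaps that of LOC105375001 on the opposite strand, and its 3 matched CCGG gave 3 and 1 HpaII tags in 769 AA against 62 in the 769 control. All of these tags lay at 1 of the 3 CCGG. Over the 3, MspI gave 0 tags in the 769 control and in 786 AA replicate 1. Over the 6 matched CCGG of LOC105375001, which include these 3 (27440724 to 27440946), HpaII gave 0 tags in all 3 DNA samples of 786, while MspI gave 19 and 14 in 786 AA and 35 in the 786 control. In 769 these 6 sites gave 32 and 1 HpaII tags in AA against 237 in the control, and MspI gave 18 and 10 in AA and 0 in the control. ZNF322 showed the same order in 769, with ratios of 2.11 and 3.06 in AA against 11.3 in the control, on 68, 41 and 214 HpaII tags. In 786 its ratios were 0.0886 and 1.78 in AA, and the control had 0 tags. SCAND3 was the promoter closest to fully uncut. Its 5 CCGG gave 222 MspI tags over the 6 libraries and 2 HpaII tags in all, both in 786 AA replicate 2. These promoters are described by their values with no test, since MspI tags at 1 promoter were few and PCR reads without molecular identifiers are not independent molecules.

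**Figure D1:**
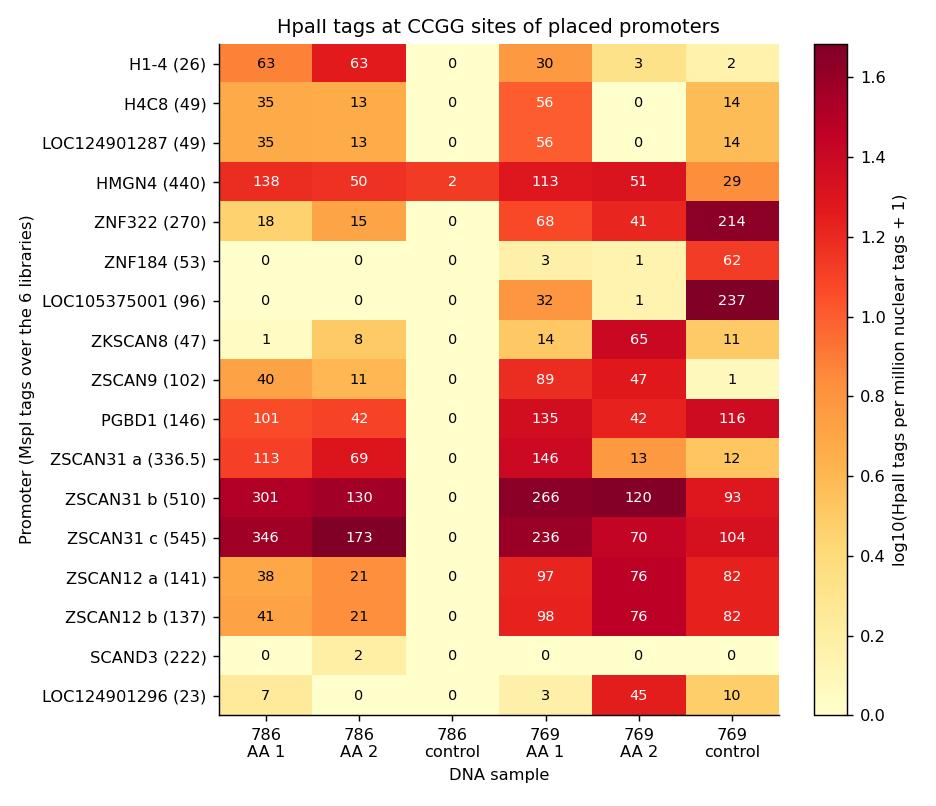
HpaII tags at the CCGG sites of each placed promoter (rows, with MspI tags summed over 6 libraries in parentheses; letters tell apart several promoters of 1 gene) in the 6 DNA samples (columns). Numbers are tags and colour is log10 of 1 plus the tags scaled to a fixed library size. SCAND3 is empty but for 2 tags, ZNF184 and LOC105375001 have tags in 769 only, and the 786 control has tags only at HMGN4.

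Depth limits what can be said of the interval. Nuclear tags ran from 160231 to 9618660 in the HpaII libraries and from 3472351 to 11431291 in the MspI libraries. Within the interval the HpaII libraries had 9977 and 4020 tags at 387 and 393 sites in 786 AA, 175 tags at 38 sites in the 786 control, 9619 and 3908 tags at 474 and 236 sites in 769 AA, and 5415 tags at 172 sites in the 769 control. The MspI libraries had 3688 to 11170 tags at 379 to 719 sites. The 1413 listed sites are 42.6% of the 3317 reference CCGG that the running site numbers count here, a density of 1148 per Mb against 647.5 over all of chromosome 6. Counts that were not whole, as tags split between several places of alignment would give, made up 10.4% to 25.3% of the interval's sites per library, against 8.23% to 11.5% genome-wide. Histone and tRNA genes have near-identical copies, so tags at such copies are uncertain in their place.

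Over all sites, HpaII cut the interval slightly more than the genome mean in every DNA sample. The ratio was 1.09 and 1.20 in the 786 AA samples against 1.28 in the 786 control, and 1.70 and 1.38 in the 769 AA samples against 1.10 in the 769 control. It exceeded that of the rest of chromosome 6 (40187 sites) 1.20-fold, in 5 of 6 DNA samples, and the exact sign-flip permutation test over the 6 samples gave p = 0.0625, two-sided. The rest of chromosome 6 stood between 1.00 and 1.14. Against the MHC interval, taken as the next 4.5 Mb of the chromosome, the fold was 1.07, in 3 of 6 samples, with p = 0.25 by the same exact test. The share of MspI tags in the interval, which follows DNA copies, averaged 0.0907% ± 0.00511 in 786 and 0.0984% ± 0.00754 in 769 (SD, n = 3 each, exact permutation p = 0.3).

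The excess lay at sites with few CCGG around them. CCGG clustered as in CpG islands is commonly unmodified while isolated CCGG is mostly methylated, so sites were compared within classes of the number of reference CCGG in a 1 kb window. At sites with 1 to 2 CCGG per kb the interval's ratio was 0.444 and 0.539 in 786 AA and 0.974 in the 786 control, and 0.632 and 0.600 in 769 AA and 0.466 in the 769 control. The rest of chromosome 6 gave 0.366 and 0.406 in 786 AA, 0.372 in the 786 control, 0.279 and 0.189 in 769 AA, and 0.131 in the 769 control. The interval was higher in 6 of 6 samples and 2.18-fold on average. Against the whole genome in this class it was higher in all but 786 AA replicate 1, where 0.444 in the interval stood against 0.605. At 3 to 7 CCGG per kb, the class of 51.9% of the interval's sites and of 30.6% of those on the rest of the chromosome, it was 1.75-fold higher, again in 6 of 6 samples, with 1.09 to 1.81 in the interval and 0.605 to 0.844 in the rest.

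For both classes the exact sign-flip permutation test gave p = 0.0312, the smallest that 6 samples allow, and 0.0625 after Benjamini-Hochberg adjustment over the 4 classes. Wherever used here, this test takes the 6 samples as independent, though the samples of a line share their cells. At 8 to 15 CCGG per kb the fold was 1.14, in 4 of 6 samples (exact permutation p = 0.125, adjusted 0.167). At 16 or more the fold was 0.635 and the interval was higher in 2 of 6 samples (exact permutation p = 0.375), on only 19 sites. The rest of chromosome 6, as used here, leaves out only the 6p22 interval and so includes the 3033 sites of the MHC interval. Against this set the MHC interval was also higher at 3 to 7 CCGG per kb in 6 of 6 samples, 1.33-fold (exact permutation p = 0.0312, adjusted 0.125). At 1 to 2 it was 1.15-fold and higher in 3 of 6 (exact permutation p = 0.562). The 6p22 interval was above the MHC interval in 6 of 6 samples in both classes, 1.91-fold at 1 to 2 and 1.32-fold at 3 to 7 (exact permutation p = 0.0312 each, adjusted 0.0625 over 4 classes). The comparisons with the MHC interval at equal density were chosen after the data were seen. Without sites that had fractional counts the folds of the 2 sparser classes were 2.08 and 1.70, in the same direction.

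**Figure D2:**
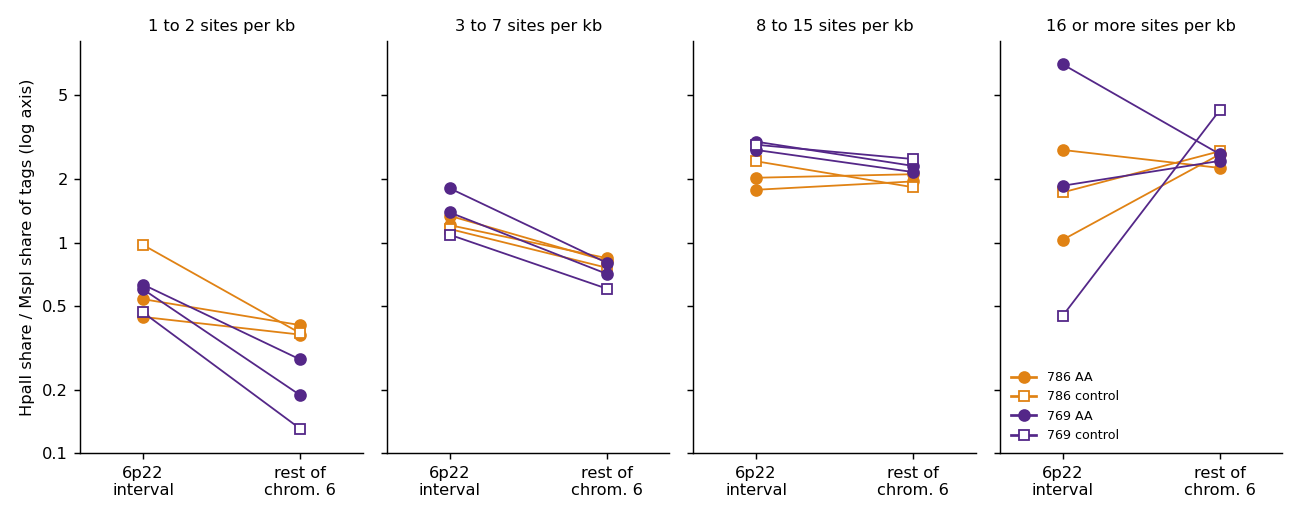
HpaII share over MspI share of tags (log axis) at sites of the 6p22 interval and of the rest of chromosome 6, in 4 classes of CCGG per kb. Each line joins the values of 1 DNA sample, with filled circles for AA and open squares for controls. All 6 lines are higher at the interval than at the rest of the chromosome in the 2 sparsest classes, where the interval is 2.18-fold and 1.75-fold higher.

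The count of cut sites, which a few sites with many tags cannot set, pointed the same way. Among sites with 3 to 7 CCGG per kb and at least 30 MspI tags over the 6 libraries, 226 in the interval and 4686 in the rest of chromosome 6, an HpaII tag was seen in the interval at 43.4% and 46.0% of sites in 786 AA, 4.42% in the 786 control, 56.6% and 27.4% in 769 AA, and 20.8% in the 769 control. The rest of the chromosome had 33.0% and 32.7% in 786 AA, 4.20% in the 786 control, 35.6% and 15.8% in 769 AA, and 11.8% in the 769 control. The interval was higher in 6 of 6 samples in this class, though by little in the shallow 786 control, and in the class of 1 to 2 per kb, where the 786 control had 4.76% in the interval and 1.58% in the rest.

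A site was seldom cut in every sample. Of 376 sites of the interval with at least 30 MspI tags, 163 had HpaII tags in both lines, 45 in 786 only, 48 in 769 only, and 120 in neither. The sites cut in neither line make up 31.9% of these, against 41.5% of the 12300 such sites on the rest of chromosome 6. Sites cut in both lines had a median of 5 CCGG per kb and sites cut in neither a median of 3. Over all 1413 sites, 12 had an HpaII tag in all 6 samples and 656 had none in any. Of the 10 sites with the highest mean share of HpaII tags only that at 28303933 fell in a placed promoter, ZSCAN31, with 251 and 106 tags in 786 AA, 0 in the 786 control, 217 and 63 in 769 AA and 16 in the 769 control. The highest of the 10, at 26924637, had 99.83 and 60.5 tags in 786 AA, 7.5 in the 786 control, 46.33 and 90.33 in 769 AA and 140 in the 769 control, and most of these counts were not whole.

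The samples of the 2 lines did not overlap in the interval's ratio standardised for CCGG density. This is its HpaII tags over the number expected from its own MspI tags in each density class. Expected tags used the genome-wide HpaII over MspI rate of that class in the same sample, so each sample has its own reference. The standardised ratio was 1.31 and 1.51 in 786 AA and 1.60 in the 786 control. In 769 it was 2.38 and 1.97 in AA and 1.98 in the control. All 3 DNA samples of 786 thus lay below all 3 of 769, with means of 1.47 ± 0.144 and 2.11 ± 0.235 (SD, n = 3 each) and a fold of 0.698 for 786 over 769. The exact permutation test gave p = 0.1, two-sided, the smallest that 3 against 3 allow, so that the threshold of 0.05 cannot be reached. Divided by the same value of the rest of chromosome 6 the ratio was 1.39 ± 0.140 in 786 and 1.81 ± 0.2 in 769, a fold of 0.767 and again with no overlap (exact permutation p = 0.1). The lines parted in the same direction in the MHC interval, at 1.18 and 1.30 in 786 AA and 1.18 in the 786 control, and at 1.54 and 1.38 in 769 AA and 1.32 in the 769 control, a fold of 0.867 (exact permutation p = 0.1). Divided by the MHC interval, the 6p22 ratio was 1.21 ± 0.127 in 786 and 1.49 ± 0.06 in 769 (SD, n = 3 each), a fold of 0.806 with no overlap (exact permutation p = 0.1). Without standardisation the lines overlapped, at 1.19 ± 0.0959 in 786 and 1.39 ± 0.300 in 769 (exact permutation p = 0.4). They also overlapped in the interval's 2 sparsest classes. At 3 to 7 CCGG per kb its ratio was 1.16 to 1.34 in 786 and 1.09 to 1.81 in 769. The genome-wide ratio of that class was higher in 786, at 0.717 to 0.754 against 0.438 to 0.623. At 8 to 15 the lines did not overlap in the interval, at 1.78 to 2.43 in 786 and 2.75 to 3.01 in 769. They did not overlap genome-wide in that class either, at 1.57 to 1.68 in 786 and 1.73 to 1.99 in 769. The same order was seen in the rest of chromosome 6, at 1.83 to 2.11 in 786 and 2.16 to 2.49 in 769. The MHC interval had 1.93 to 2.23 in 786 and 2.34 to 2.43 in 769.

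**Figure D3:**
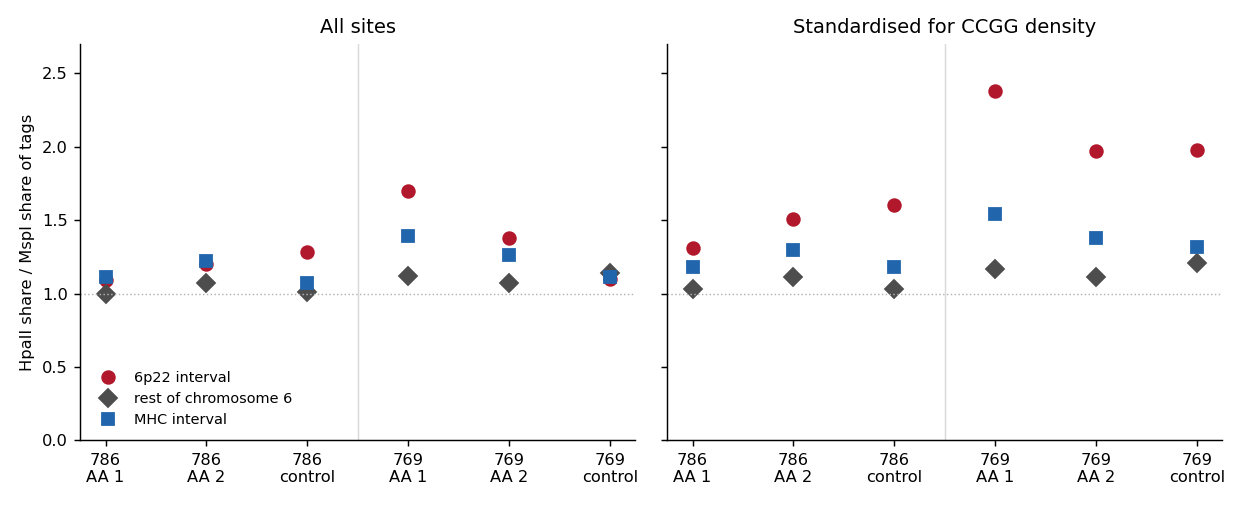
HpaII share over MspI share of nuclear tags per DNA sample for the 6p22 interval, the rest of chromosome 6 and the MHC interval, over all sites (left) and standardised for CCGG density (right). Each point is 1 DNA sample, and the dotted line at 1 is the genome mean. On the right the 786 samples of the 6p22 interval lie at 1.31 to 1.60 and the 769 samples at 1.97 to 2.38.

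The comparison of AA with control asks whether the agent opened the cluster, and no shared change was found over the interval. In 786 the AA samples averaged 1.14 ± 0.0787 (SD, n = 2) against 1.28 in the single control, a fold of 0.893, and in 769 they averaged 1.54 ± 0.222 (SD, n = 2) against 1.10, a fold of 1.4. The mean fold was 1.12, with p = 0.556 by an exact permutation test of the treatment labels within lines, in which 9 arrangements allow no p below 0.111. Both AA samples lay below the control in 786 and above it in 769. The difference between the lines, a fold of folds of 0.640, had p = 0.222 by the same exact permutation test. For the ratio standardised for CCGG density the mean AA fold was 0.983 (exact permutation p = 0.778).

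The share of covered sites with an HpaII tag rests on few sites where every MspI library is deep. At the 8 sites of the interval where no MspI library had fewer than 10 tags it was 87.5% and 75.0% in 786 AA against 25.0% in the 786 control, and 87.5% and 50.0% in 769 AA against 50.0% in the 769 control. The mean difference was 37.5 percentage points (exact permutation p = 0.333), 56.2 points without the 769 control and 18.8 points without the 786 control. At the 5 sites where none had fewer than 20, 769 AA replicate 2 was below its control, at 40.0% against 60.0%. In a wider set chosen after the data were seen, the 376 sites with at least 30 MspI tags over the 6 libraries, the share was higher in every AA sample than in the control of its line, and also in the rest of the chromosome. There the mean difference was 26.6 percentage points (exact permutation p = 0.111, the smallest possible), with the 786 control by far the shallowest library. With every HpaII library thinned to 160231 nuclear tags, 14.1% and 16.8% of the 376 covered sites had a tag in 786 AA against 5.59% in the 786 control, and 20.5% and 12.8% in 769 AA against 8.24% in the 769 control. The rest of chromosome 6 gave 14.9% and 15.9% in 786 AA against 5.36% in the 786 control, and 16.9% and 11.9% in 769 AA against 10.6% in the 769 control. The libraries also differed in how their tags were spread. The 10 windows of 10 kb with most tags held 33.4% and 32.9% of the interval's HpaII tags in 786 AA against 64.8% in the 786 control, and 33.0% and 37.8% in 769 AA against 47.5% in the 769 control. The part of this spread in the share of cut sites was not tested.

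Along the interval the AA and control samples of 769 parted most at 27500001 to 28000000, a stretch of 651 reference CCGG. There the ratio was 0.884 and 1.08 in 769 AA against 0.140 in the 769 control, on 747, 353 and 106 HpaII tags, a 6.97-fold difference. In 786 it was 0.969 and 1.33 in AA against 0.901 in the control, a 1.26-fold difference, on 1297, 522 and 18 HpaII tags. At 26000001 to 26500000, which holds H1-4 and H4C8, the ratio was lower with AA in both lines. In 786 it was 1.20 and 1.28 in AA against 1.4 in the control, a fold of 0.887, on 2418, 1060 and 40 HpaII tags. In 769 it was 2.31 and 1.29 in AA against 3.10 in the control, a fold of 0.557, on 2730, 832 and 2090 tags. The 786 control values of both segments rest on few tags, so small differences from them are uncertain. Over the 6 segments of up to 500 kb, the exact permutation p for AA in both lines together ran from 0.111, the smallest possible, at 27500001 and 28000001 to 0.778.

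**Figure D4:**
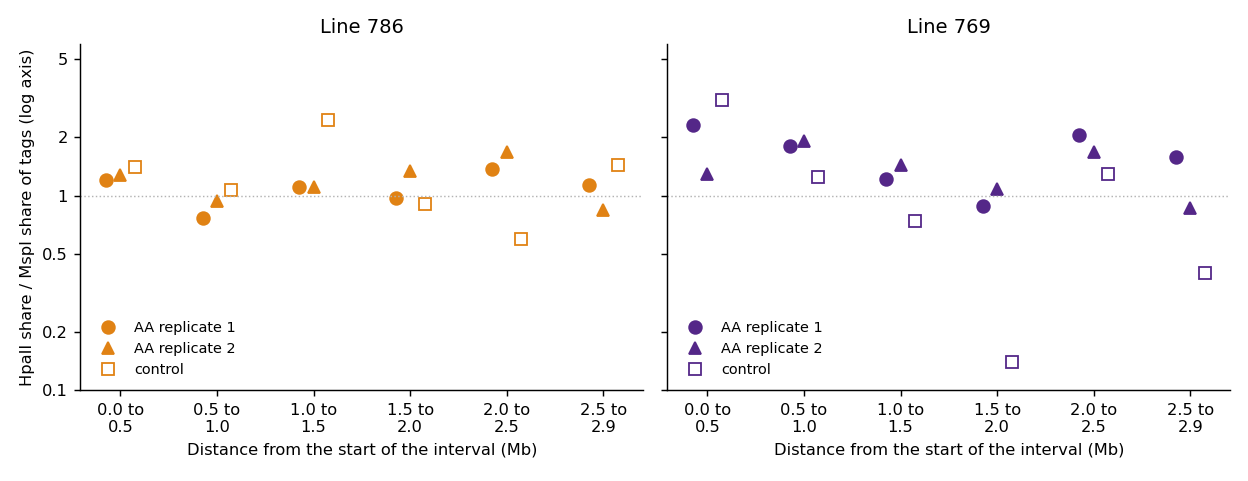
HpaII share over MspI share of tags (log axis) in consecutive segments of the 6p22 interval for line 786 (left) and line 769 (right), by distance from the start of the interval. Filled symbols are the AA replicates and open squares the control. The 769 control stands at 0.140 in the fourth segment, where the AA samples are 0.884 and 1.08.

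No 10 kb window of the interval passed the test for any comparison. Windows were fitted genome-wide with edgeR's quasi-likelihood test and Benjamini-Hochberg adjustment, and 39 of the interval's 290 windows had tags enough to be tested, among 28763. For AA in both lines together 0 of 39 were called at an adjusted p under 0.05, against a background of 0.435% of all tested windows, where 122 of 125 calls were higher with AA. For AA in 786 the count was 0 of 39 against 0.0661%, for AA in 769 0 of 39 against 1.29%, for the difference of these effects 0 of 39 against 0.0382%, and for 786 over 769 0 of 39 against 2.42%. With backgrounds this low, 39 windows would hold less than 1 call at the genome's rate. At an unadjusted p under 0.05 there were 6 windows of 39 for AA in both lines, against 11.6% of all tested windows, 2 for AA in 786 against 9.12%, 5 for AA in 769 against 15.5%, 2 for the difference against 11.2% and 1 for 786 over 769 against 15.5%. DESeq2 called 2 of 39 for AA in both lines, against 3.48% genome-wide, 0 for AA in 786 against 0.375%, 6 for AA in 769 against 13.3%, 0 for the difference against 4.12% and 1 for 786 over 769 against 10.2%. The interval's calls were thus near or below the genome's share under both counts.

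The 5 windows with the smallest p among those with a higher fitted ratio in AA had both 769 AA ratios above that of the 769 control, or above its floor, and 0 tags in the 786 control. The window from 26520001 had ratios of 1.04 and 0.925 in 786 AA and 0 tags in the 786 control, and of 2.85 and 2.44 in 769 AA against 0.0584 in the 769 control. In 769 that is a 45.3-fold difference, on 270, 84 and 7 HpaII tags, and in 786 AA was at least 1.34-fold higher against a floor of 3 tags in the control library. Its adjusted p by edgeR was 0.151 for both lines together, with a fitted log2 difference of 5.62 ± 1.67 (SE), and ranged from 0.00218 with DESeq2 to 0.52 without the 769 control over the alternatives. Most AA tags of the window from 26520001 lay at 1 site, 26522050. It had 182 and 81 HpaII tags in 769 AA, 4 in the 769 control and 155.5 and 41.5 in 786 AA. That site had only 7.5 MspI tags over the 6 libraries, against 869 in the whole window. The window from 26610001 had 2.81 and 2.50 in 786 AA and 3.78 and 0.884 in 769 AA, with 0 tags in both controls, which makes it at least 1.86-fold higher in 786 and at least 21.2-fold higher in 769 (edgeR adjusted p = 0.232). The windows from 26200001 and 27480001 also had 0 tags in both controls and tags in all 4 AA samples, with edgeR adjusted p of 0.268 and 0.327. In 769 AA was at least 9.18-fold and at least 11.2-fold higher there. In 786 a difference was not detectable at this depth, since at 26200001 the AA ratios of 0.267 and 2.22 lay on either side of the control's floor of 0.779 and at 27480001 the AA ratios of 1.63 and 2.94 lay below its floor of 3.18.

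The window from 28300001, which holds the ZSCAN31 promoter printed above, had ratios of 5.11 and 4.28 in 786 AA with 0 tags in the 786 control, and of 3.32 and 1.98 in 769 AA against 1.46 in the 769 control. AA was at least 7.96-fold higher in 786 and 1.82-fold higher in 769. In 786 its 692 and 248 tags with AA stood against a control library with 175 tags in the interval, and its edgeR adjusted p was 0.189 in 786 and 0.369 for both lines. The 5 windows with the smallest p among those with a lower fitted ratio in AA, from 26420001, 26770001, 27440001, 28230001 and 26020001, had edgeR adjusted p from 0.674 to 0.801. Of these, 28230001 had 1.23 and 1.90 in 769 AA against 19.8 in the 769 control, while in 786 it had 0.558 and 1.59 in AA and 0 tags in the control.

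Between lines the smallest p belonged to the window from 27770001. It had ratios of 0.274 and 2.98 in 786 AA and 0.588 in the 786 control, whereas the 769 AA samples had 0.0366 and 0 and the 769 control had 0 (edgeR adjusted p = 0.179). The next windows that were higher in 786, from 26270001, 28550001, 26680001 and 27620001, had edgeR adjusted p from 0.474 to 0.494. Windows that were lower in 786, from 26580001, 27140001, 26100001, 26120001 and 26180001, had edgeR adjusted p from 0.417 to 0.605. The window from 26120001 had 4.20 and 1.67 in 786 AA and 1.51 in the 786 control, whereas the 769 AA samples had 3.87 and 11.9 and the 769 control had 6.43, so that the lines overlapped.

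The order of the windows was wide. Of 45 windows with at least 10 MspI tags in each library, the highest by mean log2 ratio was that from 26920001, with 2.49 and 3.85 in 786 AA, 13.9 in the 786 control, 4.71 and 6.12 in 769 AA and 4.97 in the 769 control. It was followed by those from 26120001, 26170001, 28240001, 28890001, 27440001, 26420001, 26150001, 28100001 and 26100001, of which 26150001 holds H1-4, 28240001 PGBD1, 28100001 the zinc finger gene ZKSCAN8, and 27440001 ZNF184 and LOC105375001. In the window from 26920001 the site at 26924637, where most counts were not whole, held 99.83 of 201 and 60.5 of 134 HpaII tags in 786 AA. It held 7.5 of 14 in the 786 control, 46.33 of 195 and 90.33 of 138 in 769 AA, and 140 of 202 in the 769 control. The window from 27440001 had 33 and 42 HpaII tags in 786 AA and 6 in the 786 control, which lay at sites other than the 6 matched ones of these promoters. At the other end, the windows from 26240001, 26860001 and 27010001 had 0 HpaII tags in all 6 samples on 371, 434 and 420 MspI tags, a pattern of 5.8% of such windows genome-wide. The next lowest, from 28580001, holds SCAND3 and had 3 HpaII tags in all on 489 MspI tags. HpaII tags in all 6 samples were seen in 13 of the 45 windows, against 32.5% genome-wide.

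In 786 both AA ratios lay above the control in 25 of 45 windows and below it in 11, against 47.9% and 18.0% genome-wide. The 786 control had 0 tags in 29 of the 45. In 769 both AA ratios lay above the control in 17 windows and below it in 11, against 30% and 20.8%. In both lines together 10 windows were above, against 16.8%. The 3 samples of each line did not overlap in 2 windows with 786 higher, against 7.24%, and in 1 window with 786 lower, against 5.05%.

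**Figure D5:**
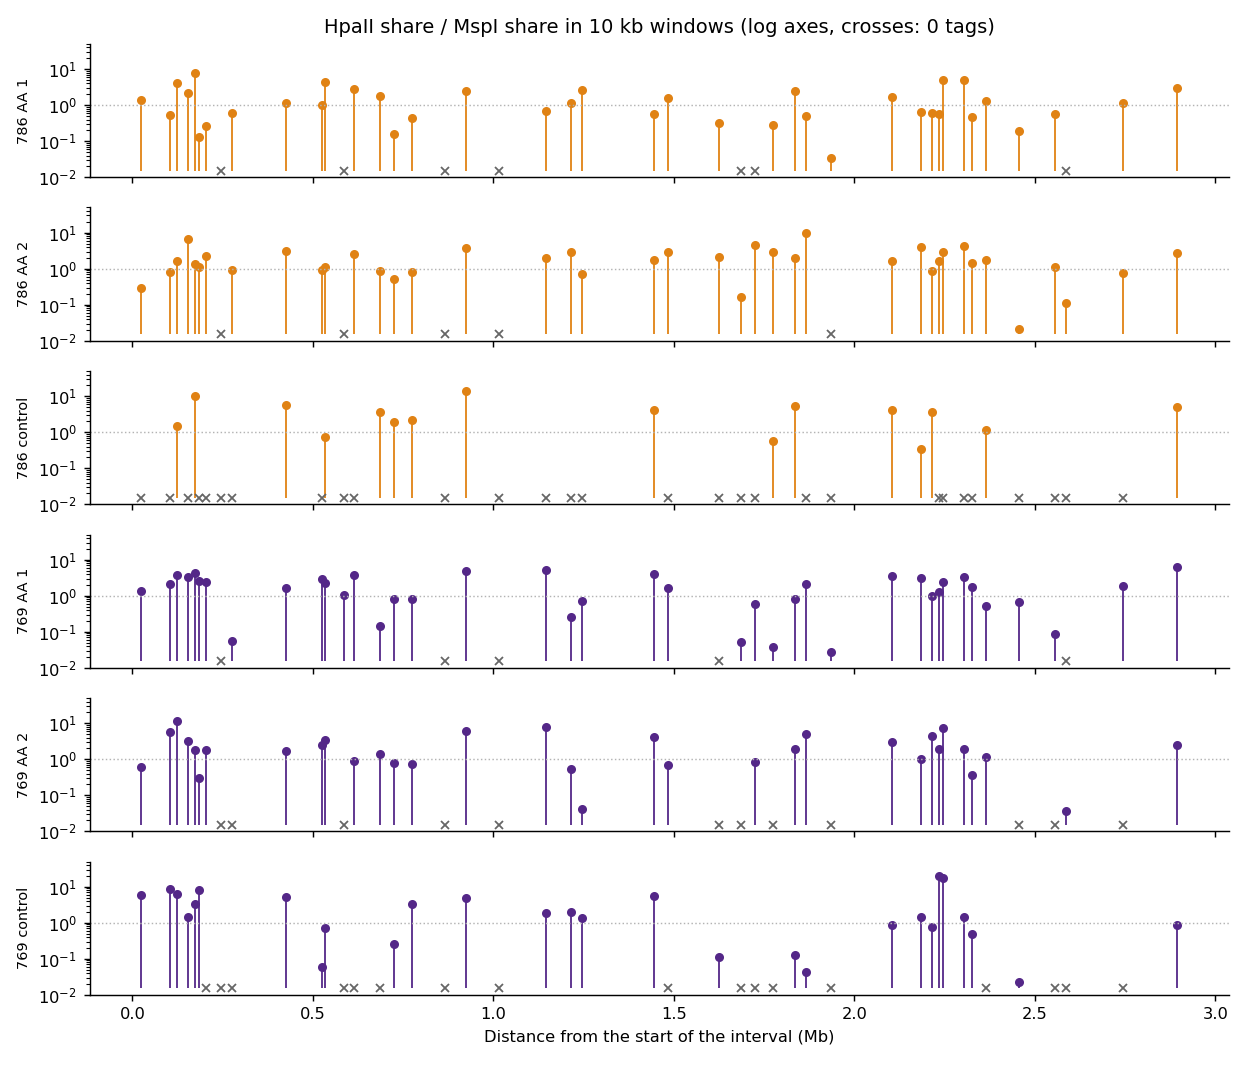
HpaII share over MspI share (log axes) in the 45 windows of 10 kb with at least 10 MspI tags in each library, by distance from the start of the interval, with 1 row for each DNA sample. Crosses mark windows with 0 HpaII tags, 29 of them in the 786 control, and the dotted line is the genome mean of 1.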

How the data were processed

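HELP-tagging libraries of 6 DNA samples, each cut with HpaII and with MspI, were analysed. Per the labels' protocols, tags came from EcoP15I digestion, in vitro transcription and PCR, and no molecular identifier is mentioned. As deposited, the files hold expected counts of tags per CCGG site, made by the authors and not normalized as far as the values show. Coordinates are hg19, per the submitters' processing notes, while no source used here names the aligner. The interval, its windows and the gene lists were chosen with earlier results of these data known.

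Site counts were summed in windows of 10 kb and rounded. Windows with at least 10 MspI tags in each MspI library and at least 10 HpaII tags in all were fitted with edgeR 4.0.16 (R 4.3.3), with terms for DNA sample, enzyme, enzyme by line and enzyme by treatment, TMM factors within each enzyme and Benjamini-Hochberg adjustment over all 28763 windows. Residual degrees of freedom were 3, or 2 in the fit by line, and the spread of a line's single control is taken from the other DNA samples. Tested on simulated data, the fit for AA in both lines recovered 18.5% of 200 windows changed 8-fold among 27248, with 1 false call. The simulation used a fixed dispersion and drew the changed windows from those at or above the median HpaII share. Its recovery and false calls may therefore not hold for the real windows. Ratios use nuclear tags, zero counts a floor of 3 tags per library, and mean log2 ratios a pseudocount of 0.5 tags. Intervals and floors cover counting error only.

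CCGG density is the number of reference sites within 1 kb by the running site numbers. Standardised ratios divide a part's HpaII tags by those expected from its MspI tags per class at the sample's genome-wide rate. The classes were set after earlier work on these data. Single values were tested by exact permutation over DNA samples. Windows were named by rule: the 5 smallest p in each direction where none was called, the 10 highest and 10 lowest windows, and the 10 sites with the highest mean HpaII share. No annotation of hg19 was used here. Promoter sequences are from RefSeq (GRCh38.p14), and placing them by restriction pattern replaced gene lists by coordinates. Alternatives were library totals, TMM over all libraries, DESeq2 1.42.0, other filters, thinning, bins of 100 kb, a replicate block and leaving out each DNA sample. Sums and permutations were run in Python 3.11.15 (numpy 2.4.6, pandas 2.3.3, scipy 1.17.1).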

Additional observations from a re-analysis of the deposited data

Results flagged for a closer look

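The effect of AA pointed in opposite directions in the 2 lines in 5 measures, with every AA sample on one side of its control in 786 and on the other side in 769. Values are folds of the AA fold in 786 over that in 769, with an exact permutation p whose smallest possible value is 0.111. Measures were listed only where they met this rule, which by itself draws p toward that value, so the p-values are no support. The interval's ratio standardised for CCGG density did not meet it, with 2.38 and 1.97 in 769 AA against 1.98 in the 769 control. Segments not named here did not meet it either. For the ratio of the whole interval the value was 0.640 (exact permutation p = 0.222), and for that ratio over the rest of chromosome 6 it was 0.600 (exact permutation p = 0.111). For the segment from 26500001 it was 0.536, for the segment from 27000001 it was 0.253 and for the segment from 28500001 it was 0.236 (exact permutation p = 0.111 each). In these 3 segments AA was lower than control in 786 and higher in 769. Each 786 value rests on 1 control library with 25, 49 and 28 HpaII tags in these segments, and the part of its depth in the result was not tested.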

How the results depend on the processing

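Of 135 alternative values for the comparisons, 12 concern the share of cut sites in 786 against 769, a difference of 0.0 percentage points with no direction to keep, which ran from -12.5 without 786 AA replicate 1 to 18.8 without the 786 control (exact permutation p of 0.4 or more). Of the other 123, 106 kept their direction, or their count of 0, and their side of the threshold. The exact permutation tests of AA and of the lines allow no p below 0.111 and 0.1, so none could pass the threshold. With 1 DNA sample left out, the exact sign-flip test against the rest of chromosome 6 allows none below 0.0625. For these values only a change of direction could be seen, so their part of the 106 says nothing about the threshold. In the 10 kb windows, where 0 windows of the interval were called, DESeq2 called 2 of 39 for AA in both lines (3.48% genome-wide), 6 for AA in 769 (13.3%) and 1 for 786 over 769 (10.2%). Without the low count filter the counts were, of 161 windows, 1 for AA in both lines (0.289% genome-wide), 2 for AA in 769 (1.03%) and 1 for AA in 786 (0.327%). Bins of 100 kb gave 2 of 28 for AA in 769 (3.73%) and thinning gave 1 of 17 for AA in 786 (1.03%). Leaving out 1 DNA sample gave 0 to 1 for AA in 769, with the 1 call (27050001) of 51 without 769 AA replicate 2 (3.59%), and 0 to 1 for AA in 786, with the 1 call (28300001) of 40 without 786 AA replicate 2 (0.542%). Over the genome the calls ran from 0 to 1002 for AA in both lines (125 as reported), 16 to 285 for AA in 786 (19), 20 to 3825 for AA in 769 (372), 0 to 1186 for their difference (11) and 25 to 2933 for 786 over 769 (696). Without the 769 control the windows from 28230001 and 26020001 turned to fitted log2 differences of 7.76 and 6.90 (lowest over the DNA samples left out -3.72 and -2.70), since only 786 then carries the contrast.

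The AA fold of the interval turned to 0.983 when standardised for CCGG density and, leaving out 1 DNA sample, ran from 0.893, without the 769 control, to 1.4, without the 786 control. At the 8 sites where each MspI library had 10 tags or more the AA fold was 1.98 (exact permutation p = 0.333) and the fold of 786 over 769 was 1.07. Against the rest of chromosome 6 the fold of 1.20 became 2.18 at 1 to 2 CCGG per kb, 1.75 at 3 to 7, 0.635 at 16 or more and, chosen after the data were seen, 1.58 when standardised (exact permutation p = 0.0312). Leaving out any DNA sample raised the exact p of the first 2 classes to 0.0625, the smallest that 5 samples allow, with folds of 1.98 to 2.46 and 1.66 to 1.82. The cause of these changes was not tested.

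With a replicate block the fold of 786 over 769 was 0.866 (exact permutation p = 0.75) and 0 windows of the interval were called, while genome-wide calls were 215 for AA in both lines and 930 for 786 over 769. The AA samples share only a number, and the differences of replicate 1 and 2 had r = -0.02 between the lines over 28763 windows. In the 786 control a floor of 3 tags is a ratio of 0.59 to 9.74 in the 45 windows, so a lower ratio was not detectable there.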

Other observations

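Among windows that were not tested or not called as reported, those from 27050001 and 27250001 passed in 769 without the low count filter, with edgeR adjusted p of 0.00347 and 0.0481. Their MspI tags were uneven, at 0 to 324 per library in the first window and 8 to 570 in the second. In both windows 769 AA replicate 2 had too few MspI tags for a ratio. The single site at 27059886 had 281 and 21 HpaII tags in 786 AA against 0 in the 786 control. In 769 it had 99 and 100 in AA against 0 in the control. Its 313 MspI tags were spread unevenly, at 0 to 154 per library. In the interval 104 sites had an HpaII tag and no MspI tag in any library.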
